A study of Homo sapiens with 6 samples.

Results

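Protein lipoylation attaches lipoic acid to a lysine of a few mitochondrial proteins, and 10 genes of this pathway were followed here among the 60609 genes listed for each library. They were listed by name, from their role in the pathway: the lipoate synthesis and transfer genes *LIPT2*, *LIAS* and *LIPT1*, the lipoyl carrier *GCSH*, the lipoylated core subunits *DLAT*, *DLST* and *DBT*, the shared subunit *DLD*, and *PDHA1* and *PDHB*, which form the first enzyme of the pyruvate dehydrogenase complex. RNA was sequenced from OCI-AML5, a human line established from acute myeloid leukemia. Cells grew in aMEM with 10% heat-inactivated serum and GM-CSF at 10 ng/mL. In 3 libraries the cells had been exposed to DMSO, the solvent, and in 3 libraries to 1 μM S767, in both groups for 24 hours. S767 is a small molecule that the study examined for its effect on metals in these cells, and the comparison asks which transcripts differ after that exposure. The study's methods describe the treatments as done in triplicate, and all libraries came from 1 cell line, so the p-values below measure the spread between treatments of that line.

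Lipoate is built in place. Mitochondrial fatty acid synthesis makes an octanoyl chain on the acyl carrier protein, LIPT2 moves it to GCSH, LIAS inserts sulfur with the help of iron-sulfur clusters, and LIPT1 passes the finished lipoyl group on to the core subunits of the 2-oxoacid dehydrogenases. There the lipoyl arm swings between active sites, and DLD reoxidizes it. Excess copper is known to bind lipoylated DLAT and to cause its aggregation, a form of cell death called cuproptosis in which LIAS and the iron-sulfur proteins are also lost. RNA levels bear on the supply of transcripts only, and neither protein nor lipoylation was measured in these libraries.

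The lysines that carry the lipoyl group are shown first, since they define the pathway's substrates. Each line gives 30 coding bases of the GENCODE 29 transcript on GRCh38, 5′ to 3′ on the coding strand, with the lysine codon in capitals, and all of them lie in coding exons. PDHX, the further lipoyl protein of pyruvate dehydrogenase, is shown for comparison.
DLAT lysine 132: gttgaaactgatAAAgccactgttggattt
DLAT lysine 259: atagaaactgacAAAgccactataggtttt
DLST lysine 110: attgaaactgacAAGacatctgtgcaggtt
DBT lysine 105: gttcaaagtgatAAAgcttctgttaccatc
GCSH lysine 107: ttggaaagtgtgAAAgctgctagtgaactc
PDHX lysine 97: attgagactgacAAAgctgtggttacctta
The pair of *DLAT* sites share 24 of 30 bases, more than any other pair of these sites, and *DLST* and *GCSH* share 14 of 30, the fewest. *DLST* is the only gene of the set with an AAG lysine codon. The codons lie at chr11:112028527-112028529 in exon 3 and chr11:112033518-112033520 in exon 5 of *DLAT*, at chr14:74889950-74889952 in exon 6 of *DLST*, at chr1:100230851-100230853 in exon 4 of *DBT* (minus strand), at chr16:81084566-81084568 in exon 4 of *GCSH* (minus strand) and at chr11:34947553-34947555 in exon 3 of *PDHX*.

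LIAS holds its iron-sulfur clusters through cysteines, and these are the residues that tie lipoylation to iron-sulfur supply. The capitals below mark their codons, in exon 5 (chr4:39465061-39465084, plus strand) for the radical SAM cluster and in exon 4 (chr4:39463528-39463563) for the auxiliary cluster.
LIAS cysteines 137, 141 and 144: TGTacaagaggtTGCagatttTGT
LIAS cysteines 106, 111 and 117: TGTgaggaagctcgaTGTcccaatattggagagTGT

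Depth was high. STAR assigned between 149994700 and 258029564 reads per library to genes on the reverse strand, which were 79.3 to 80.3% of all reads, and the forward strand held 6.44 to 6.58% of the reads on both strands. Of 7 myeloid markers, *PTPRC*, *CD33*, *SPI1*, *MPO* and *CSF2RA* had at least 2.90 TPM in every library. *CD34* was low, between 0.61 and 2.65 TPM, and highest in replicate 3 of both groups, and *KIT* lay between 0.14 and 0.42 TPM. Of 8 markers of other cell types, *CD3E* was at 0 in every library, *PECAM1* reached 3.37 TPM and the others stayed at or below 0.35 TPM. The replicate numbers paired the libraries: across genes, libraries that carry the same number deviated from their groups in the same direction (correlations of 0.78, 0.87 and 0.75). Values from a fit blocked on that number, the replicate block, are given beside the main ones where they bear on a gene.

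All 10 genes were expressed, and none changed detectably after S767. Levels are compared between genes in TPM, which RSEM scales for transcript length and to the same total in each library. *PDHA1* was highest with a mean of 175 TPM over the 6 libraries, above 94.0% of the 13012 genes that averaged more than 1 TPM. *DLD* (84.3 TPM), *PDHB* (77.6 TPM), *DLAT* (69.1 TPM) and *DLST* (64.9 TPM) followed, then *GCSH* (38.8 TPM), *LIAS* (18.8 TPM), *LIPT1* (9.91 TPM), *DBT* (4.96 TPM) and *LIPT2* (1.16 TPM). Only *DLD* and *PDHB* had libraries that overlapped their neighbour in this order, and every other neighbouring pair was separated in all libraries. *LIAS*, *LIPT1* and *LIPT2*, which make and attach lipoate, thus had lower transcript levels than *DLAT*, *DLST* and *GCSH*. The place of *GCSH* rests on how RSEM assigned its reads, since unique STAR counts held only 2.96 to 3.69% of them. *DBT*, the core subunit of the branched-chain complex, lay below *LIAS* and *LIPT1* and above *LIPT2*. No member varied by more than 1.26-fold between its highest and lowest library, and *DLST* varied by 1.04-fold.

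**Figure D1:**
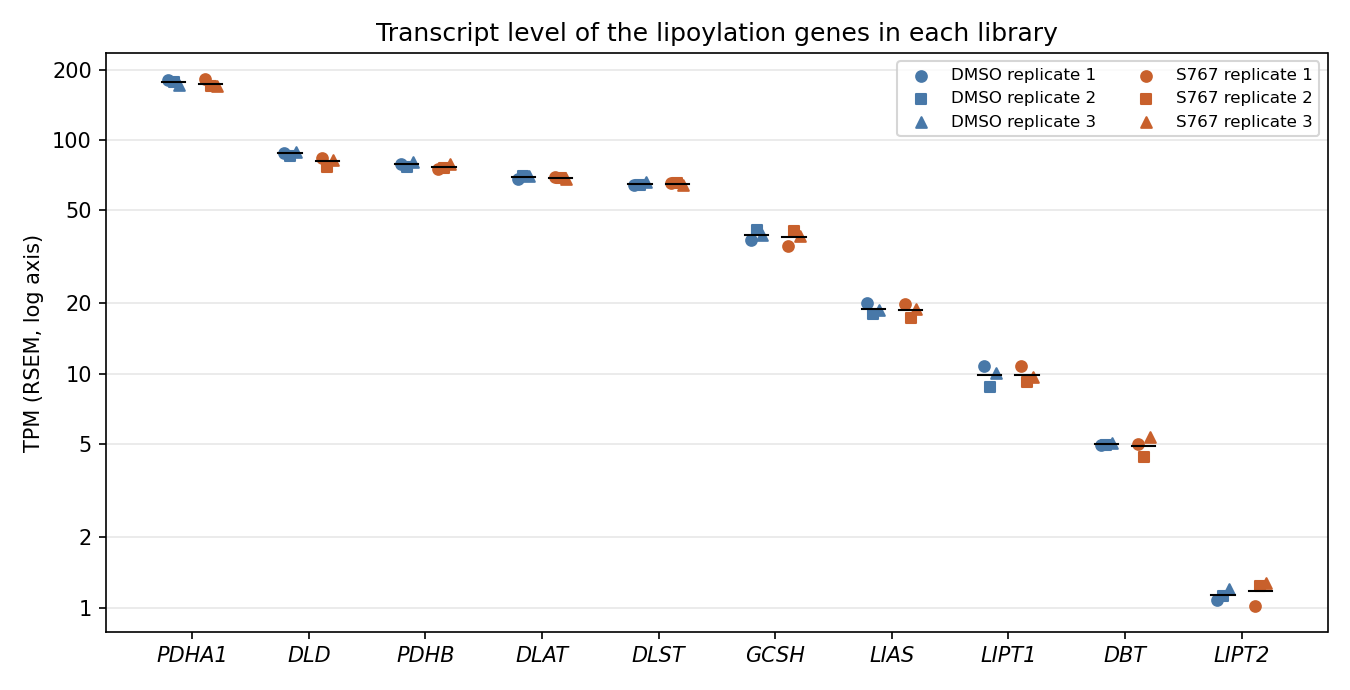
TPM (log axis) of each member in the 3 DMSO libraries (blue) and the 3 S767 libraries (orange). Marker shapes give the replicate number and the short lines the group means. The members are ordered by mean level, from *PDHA1* (175 TPM) to *LIPT2* (1.16 TPM), and the groups overlap for each gene but *DLD*, whose S767 libraries lie lower.

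The main comparison used the quasi-likelihood test of edgeR on the reverse-strand counts, with p-values adjusted over the 20725 genes that passed the filter on low counts. All 10 members passed that filter. None was called at an adjusted p under 0.05, where 0.00483% of all genes tested were (1 gene), and none had an unadjusted P under 0.05, where 3.53% of all genes did. DESeq2 and limma-voom also called 0 of the 10, where they called 25 and 1 of the 20725 genes. With the replicate block 0 members were called and 0 had P under 0.05, beside 3.23% and 16.8% of all genes. The median log2 fold change of the members was 0.03 (0.00 over all genes tested), 6 lay above 0 and 4 below it, and the median size of the change was 0.04, beside 0.07 for all genes tested and 0.04 for the 10180 with a mean log2 CPM of at least 2.5, a limit that *LIPT2* and *GCSH* lie below. In CPM 4 of the 10 were higher in S767 in all 3 same-number pairs and 2 were lower in all 3. The share over all genes was not computed, so this agreement is a description only. The 95% intervals say how large a change these data still allow, and they are given gene by gene.

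**Figure D2:**
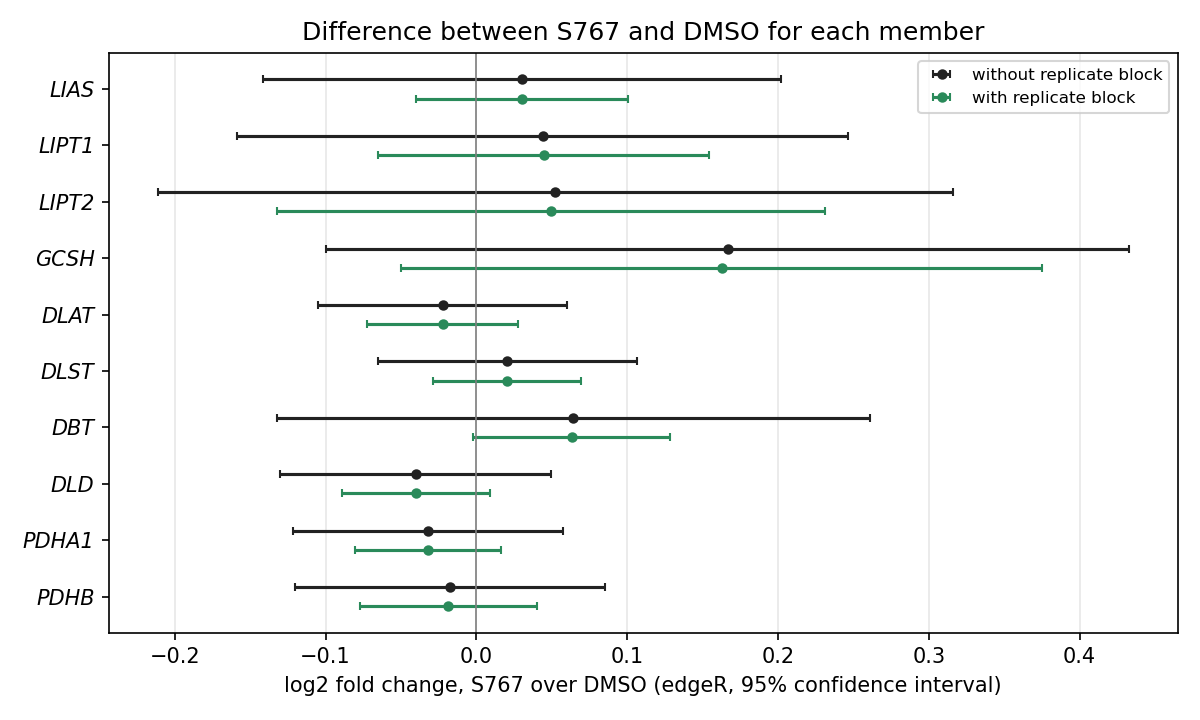
Log2 fold change of S767 over DMSO for each member with its 95% confidence interval from edgeR, without (black) and with (green) the replicate block. Every interval includes 0, the intervals of *DLAT*, *DLST*, *DLD*, *PDHA1* and *PDHB* are the narrowest, and that of *GCSH* is the widest.

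*LIPT2* (ENSG00000175536.7, chr11:74491712-74493733, minus strand), the octanoyltransferase that loads GCSH, was the least abundant member. Its counts were 395, 297 and 493 in DMSO and 423, 378 and 401 in S767, or 1.81, 2.00 and 1.91 CPM (counts scaled to library size by TMM) against 1.78, 2.11 and 2.04 CPM. The groups overlapped, and replicate 1 was lowest in both. The difference was 0.05 on the log2 scale (standard error 0.12), and its 95% interval ran from -13.6% to 24.5%, the widest of the 3 synthesis and transfer genes. With the block the interval was -8.75% to 17.4%.

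*LIAS* (ENSG00000121897.15, chr4:39458587-39485109, plus strand), the lipoyl synthase, was measured at 22.4, 19.6 and 20.8 CPM in DMSO and at 22.8, 19.5 and 21.9 CPM in S767. In both groups replicate 2 was lowest and replicate 1 highest, and the same order appeared in TPM. The replicate means spanned 0.21 on the log2 scale, whereas the treatment means differed by 0.03. The edgeR log2 fold change was 0.03 (standard error 0.08, 95% interval -9.35% to 15.0%), and with the block the interval narrowed to between -2.74% and 7.23%. The sign was not stable: it was -0.02 on log2(TPM + 1), and leaving out DMSO replicate 2 or S767 replicate 1 turned it to -0.01 or -0.02. In GENCODE 29 363 exonic bases of *LIAS* are shared with *RPL9* on the opposite strand, a much more abundant gene, and *LIAS* had 2917 to 5420 counts on its own strand and 16 to 36 on the other.

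*LIPT1* (ENSG00000144182.17, chr2:99154955-99163157, plus strand), which hands the lipoyl group to the core subunits, followed the same replicate order as *LIAS*. It was measured at 7.64, 6.42 and 7.09 CPM in DMSO and at 7.66, 6.90 and 7.24 CPM in S767. The groups overlapped almost fully, although S767 was higher in all 3 same-number pairs, by 0.00, 0.11 and 0.03 on the log2 scale. The log2 fold change was 0.04 (standard error 0.09, 95% interval -10.4% to 18.6%, or -4.40% to 11.3% with the block). Without DMSO replicate 2, the lowest library, it was -0.02. In TPM replicate 3 of *LIPT1* was lower in S767 (10.1 in DMSO, 9.70 in S767), and the difference on log2(TPM + 1) was 0.005.

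*GCSH* (ENSG00000140905.10, chr16:81081938-81096425, minus strand), the H protein of the glycine cleavage system and carrier of the growing lipoyl group, gave the largest count-based difference of the 10. STAR counts were 274, 184 and 318 in DMSO and 306, 263 and 281 in S767, or 1.25, 1.24 and 1.23 CPM against 1.28, 1.47 and 1.43 CPM. The groups did not overlap, as in 9.21% of all genes tested, and the exact two-sided permutation test gave p = 0.10, its lower limit in a design of this size. The log2 fold change was 0.17 (standard error 0.12, 95% interval -6.66% to 35.0%, adjusted p = 1.00). With the block the interval was -3.41% to 29.7%.

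The *GCSH* difference was not seen in the RSEM estimates. RSEM assigned 6215 to 10050 expected reads to the gene, so that the STAR counts held only 2.96 to 3.69% of them, where the median gene with at least 100 expected reads had 105% and 3.86% of genes had under 10%. TPM values were 37.2, 41.3 and 39.4 in DMSO and 35.2, 40.9 and 39.0 in S767, which overlapped, with the same replicate order in each group. The log2 fold change of the RSEM counts was -0.02 (95% interval -12.8% to 11.4%), and with the block the interval was -5.91% to 2.85%. STAR counts only reads that fall on 1 gene at 1 place. In GENCODE 29 *GCSH* shares 442 of its 3677 exonic bases with *AC092718.3* and 430 with *AC092718.8* on the same strand, and its copy *GCSHP5* held 201 to 316 RSEM reads. The part of these overlaps in the gap between STAR and RSEM was not tested.

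**Figure D3:**
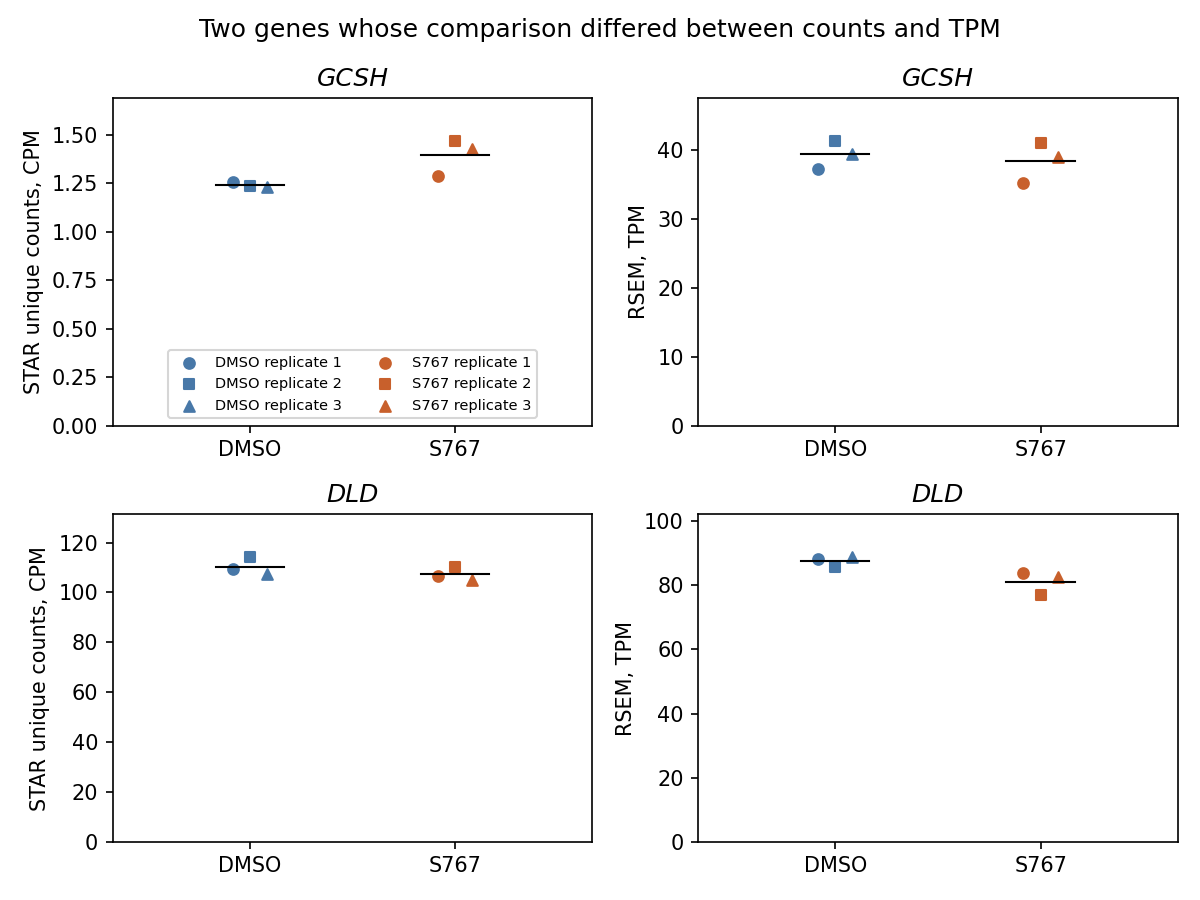
*GCSH* (top) and *DLD* (bottom) in each library, as CPM from unique STAR counts (left) and as TPM from RSEM (right), all axes from 0. *GCSH* was separated between groups in CPM and overlapped in TPM, whereas *DLD* overlapped in CPM and was separated in TPM (76.8 to 83.8 in S767 against 85.7 to 88.8 in DMSO).

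Among the lipoylated core subunits, *DLAT* and *DLST* were measured more tightly than *DBT*. *DLAT* (ENSG00000150768.15, chr11:112024814-112064390, plus strand) encodes the acetyltransferase core of pyruvate dehydrogenase and carries both lysines printed above. It was measured at 147, 154 and 153 CPM in DMSO and at 148, 152 and 148 CPM in S767, from 22964 to 39453 counts per library. The groups overlapped, and 1 of 3 same-number pairs was higher in S767. The log2 fold change was -0.02 (standard error 0.04), and the 95% interval of -7.02% to 4.26% leaves room for only a small difference at 24 hours. With the block it was -4.88% to 1.95%.

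*DLST* (ENSG00000119689.15, chr14:74881891-74903745, plus strand), the succinyltransferase core of 2-oxoglutarate dehydrogenase, was measured at 115, 121 and 120 CPM in DMSO and at 117, 123 and 120 CPM in S767. The groups overlapped, with replicate 2 highest in both. S767 differed from DMSO by 0.02 on the log2 scale (standard error 0.04, 95% interval -4.43% to 7.67%, or -1.96% to 4.94% with the block). In CPM S767 was higher in all 3 same-number pairs, by 0.02, 0.03 and 0.01 on the log2 scale. In TPM replicate 3 was lower in S767 (66.3 in DMSO, 64.1 in S767).

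*DBT* (ENSG00000137992.14, chr1:100186919-100249834, minus strand), the core of the branched-chain complex, was the lowest of the core subunits. It was measured at 30.4, 27.7 and 32.3 CPM in DMSO and at 31.4, 28.2 and 35.0 CPM in S767. S767 was higher in all 3 same-number pairs, by 0.05, 0.02 and 0.12 on the log2 scale, but the spread between replicate numbers was 0.27. EdgeR gave a log2 fold change of 0.06 (standard error 0.09, 95% interval -8.74% to 19.8%, or -0.142% to 9.32% with the block). The block gave the lowest P of any member, 0.0565, with an adjusted p of 0.314 in edgeR. In TPM the direction turned, with a difference of -0.02 on log2(TPM + 1), while the RSEM counts differed by 0.07 on the log2 scale. The effective length of *DBT* was longer in S767 in all 3 same-number pairs, by 0.08 on the log2 scale on average, the largest such difference among the members, although the groups overlapped (exact permutation p = 0.50). Its part in the turned direction was not tested, and without S767 replicate 3 the count-based value was also -0.02.

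*DLD* (ENSG00000091140.14, chr7:107890970-107931730, plus strand), the dihydrolipoamide dehydrogenase that all these complexes share, gave different pictures on the 2 scales. In counts it was measured at 109, 114 and 108 CPM in DMSO and at 106, 110 and 105 CPM in S767. The groups overlapped, and S767 was lower in all 3 same-number pairs by 0.03 to 0.05 on the log2 scale. The log2 fold change was -0.04 (standard error 0.04, 95% interval -8.64% to 3.50%, or -6.00% to 0.617% with the block). In TPM *DLD* was at 88.2, 85.7 and 88.8 in DMSO and at 83.8, 76.8 and 82.5 in S767. There was no overlap, which held for 7.77% of the genes tested in TPM. Limma on log2(TPM + 1) gave a difference of -0.11 (95% interval -13.3% to -1.09%) with an unadjusted P of 0.0290, a level that 4.53% of all genes reached, and an adjusted p of 1.00. The RSEM counts themselves differed by -0.05 on the log2 scale, close to the STAR counts. The effective length that RSEM assigned to *DLD*, by which TPM is divided, was 1606, 1703 and 1589 bases in DMSO and 1674, 1789 and 1622 bases in S767. It was longer in S767 in all 3 same-number pairs, by 0.05 on the log2 scale on average, and overlapped between the groups (exact permutation p = 0.40).

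The first enzyme of pyruvate dehydrogenase, which decarboxylates pyruvate, is built from PDHA1 and PDHB. *PDHA1* (ENSG00000131828.14, chrX:19343893-19361705, plus strand) was measured at 131, 138 and 131 CPM in DMSO and at 128, 134 and 128 CPM in S767, lower in all 3 same-number pairs by 0.03 to 0.04 on the log2 scale. The groups overlapped, and the log2 fold change was -0.03 (standard error 0.04, 95% interval -8.09% to 4.07%, or -5.44% to 1.16% with the block). In TPM replicate 1 of *PDHA1* was not lower in S767 (181.4 in DMSO, 181.8 in S767). *PDHB* (ENSG00000168291.13, chr3:58427630-58433857, minus strand) was measured at 75.6, 75.3 and 77.7 CPM in DMSO and at 71.2, 76.3 and 78.5 CPM in S767. In CPM only replicate 1 was lower in S767. The log2 fold change was -0.02 (standard error 0.05, 95% interval -7.99% to 6.12%, or -5.22% to 2.85% with the block), and 0.02 without S767 replicate 1. In TPM *PDHB* was at 78.8, 76.6 and 80.6 in DMSO and at 74.8, 75.7 and 79.2 in S767. These values overlapped but were lower in S767 in all 3 same-number pairs, and the difference on log2(TPM + 1) was -0.04.

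The balance of subunits within a complex was compared as the ratio of their TPM values in each library, for 7 ratios whose genes all had at least 1 TPM. *PDHA1* transcripts exceeded those of *PDHB* by 2.25-fold ± 0.10 (SD, n = 3) in DMSO and 2.27-fold ± 0.15 in S767. *DLAT* stood at 0.393 of *PDHA1* in DMSO and 0.395 in S767, and at 2.92 times *PDHX*, which binds DLD to the core, in both groups. *DBT* stood at 0.0778 of *BCKDHA* in DMSO and 0.0798 in S767. That ratio rests on how RSEM assigned the *BCKDHA* reads, of which unique STAR counts held 0.160 to 0.255%. The ratio of *DLST* to *OGDH*, the first enzyme of the 2-oxoglutarate complex, was 1.62 ± 0.06 in DMSO and 1.57 ± 0.07 in S767 and was lower in S767 in all 3 same-number pairs. The ratio of *DLD* to *DLAT* was 1.26 ± 0.04 in DMSO and 1.18 ± 0.05 in S767. It was the only ratio without overlap, although the nearest libraries were close, at 1.221 in DMSO and 1.217 in S767, and the part of the *DLD* effective lengths given above was not tested. Its log2 difference was -0.10 with an exact permutation p of 0.10, adjusted over the 7 ratios to 0.70, and the difference was -0.06 without S767 replicate 2 and -0.02 in CPM. The other 6 gave exact permutation p-values from 0.40 to 1.00.

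**Figure D4:**
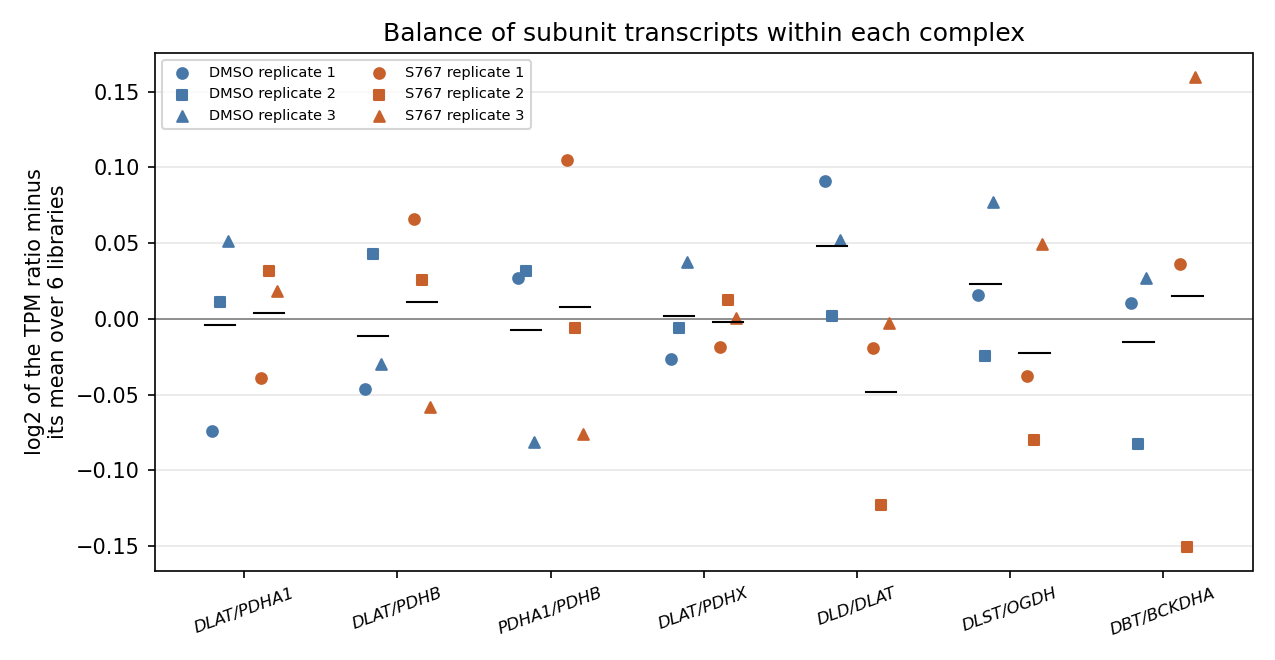
Log2 of each TPM ratio in each library, centred on its mean over the 6 libraries, for DMSO (blue) and S767 (orange). The short lines are group means. *DLD*/*DLAT* is the only ratio whose groups do not overlap, and its nearest libraries (1.221 and 1.217) almost touch.

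Another 39 genes that supply, complete or regulate these enzymes were grouped by role, and 37 of them were tested (*PDHA2*, the testis form, and *AMT* were not). With edgeR 0 were called and 1 had P under 0.05, beside 0.00483% and 3.53% of all genes tested. With the block 2 were called (1 higher, 1 lower) and 11 had P under 0.05, of which 8 were higher and 3 lower, beside 3.23% and 16.8% of all genes tested. Their median log2 fold change was 0.00, as over all genes tested.

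The iron-sulfur and electron supply to LIAS held the clearest difference. *FDXR* (chr17:74862497-74873031, minus strand), the reductase that feeds electrons to ferredoxin and is also a known p53 target, was measured at 39.7, 38.5 and 37.0 CPM in DMSO and at 47.2, 49.9 and 51.6 CPM in S767. The groups did not overlap, and S767 was higher in all 3 pairs. Its log2 fold change was 0.37 (standard error 0.05), with an adjusted p of 0.377 in edgeR and of 0.000359 with the replicate block. The other 7 genes of that list, the cluster carriers *NFU1*, *BOLA3*, *ISCA1*, *ISCA2*, *IBA57* and *GLRX5* and the ferredoxin *FDX1*, had 0 with P under 0.05 in either fit. The most abundant of them, *GLRX5*, had a log2 fold change of -0.04 (141 TPM). Its groups overlapped in CPM but not in TPM (142.68 to 143.69 in DMSO, 135.05 to 141.92 in S767). Such a separation held for 7.77% of the genes tested in TPM.

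Among the 10 tested genes around pyruvate dehydrogenase, *PDK1*, a kinase that switches the complex off, passed with the block only. It was measured at 21.1, 37.3 and 33.1 CPM in DMSO and at 21.5, 25.0 and 23.7 CPM in S767. DMSO replicate 1 lay with the S767 libraries, and the lower level in S767 came from replicates 2 and 3. The log2 fold change was -0.38 (standard error 0.18, adjusted p = 1.00 in edgeR), or -0.35 with an adjusted p of 0.0359 with the block. That adjusted p became 0.0425 with library size alone in place of TMM. On RSEM counts with the block it was 0.0867, with a log2 fold change of -0.35. When 1 replicate number was left out of both groups, the log2 fold change with the block was -0.53 without replicate 1 (adjusted p = 4.29e-19). It was -0.23 without replicate 2 (adjusted p = 0.498) and -0.28 without replicate 3 (adjusted p = 3.75e-08). These fits rest on 2 pairs with few residual degrees of freedom, so their very small p-values carry little weight. Without replicate 1, 2 or 3 they called 2034 of 20629, 24 of 21198 and 636 of 20801 of all genes. Both subunits of the mitochondrial pyruvate carrier were higher in all 3 pairs, as were 8 of the 37 tested pathway genes in all, while 6 were lower in all 3. *MPC1* had a log2 fold change of 0.10 (adjusted p = 0.106 in edgeR with the block) and *MPC2* of 0.09 (adjusted p = 0.154). Neither passed with all libraries in.

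No gene of the other 5 lists was called in either fit. The octanoyl supply (8 genes) had a median log2 fold change of -0.03, and its most abundant member *NDUFAB1*, the mitochondrial acyl carrier protein, stood at 245 TPM with a log2 fold change of 0.03. *HTD2*, a dehydratase of that list, had a log2 fold change of -0.35 from unique counts and 0.03 on RSEM counts. STAR held 3.23 to 7.12% of its RSEM reads, *RPP14* shares 1885 of its 2119 exonic bases on the same strand, and the part of this overlap was not tested. *OGDH* had 0.08 (0.03 without S767 replicate 2), with an adjusted p of 0.122 in edgeR with the block. *BCKDHA* gave few unique counts, as STAR held 0.160 to 0.255% of its RSEM reads. *AC011462.1* shares 1660 of its 2602 exonic bases on the same strand, and the part of this overlap was not tested. On RSEM *BCKDHA* stood at 63.1 TPM, and its TPM groups did not overlap (62.8 to 67.1 in DMSO, 61.0 to 62.4 in S767). Besides DLD, GCSH works in glycine cleavage with GLDC and AMT, and both of these were low: *GLDC* lay between 0.08 and 0.21 TPM and *AMT* between 0.21 and 0.43 TPM, beside 38.8 TPM for *GCSH* and 84.3 TPM for *DLD*. *SIRT4*, which removes lipoyl groups, averaged 0.57 TPM.

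**Figure D5:**
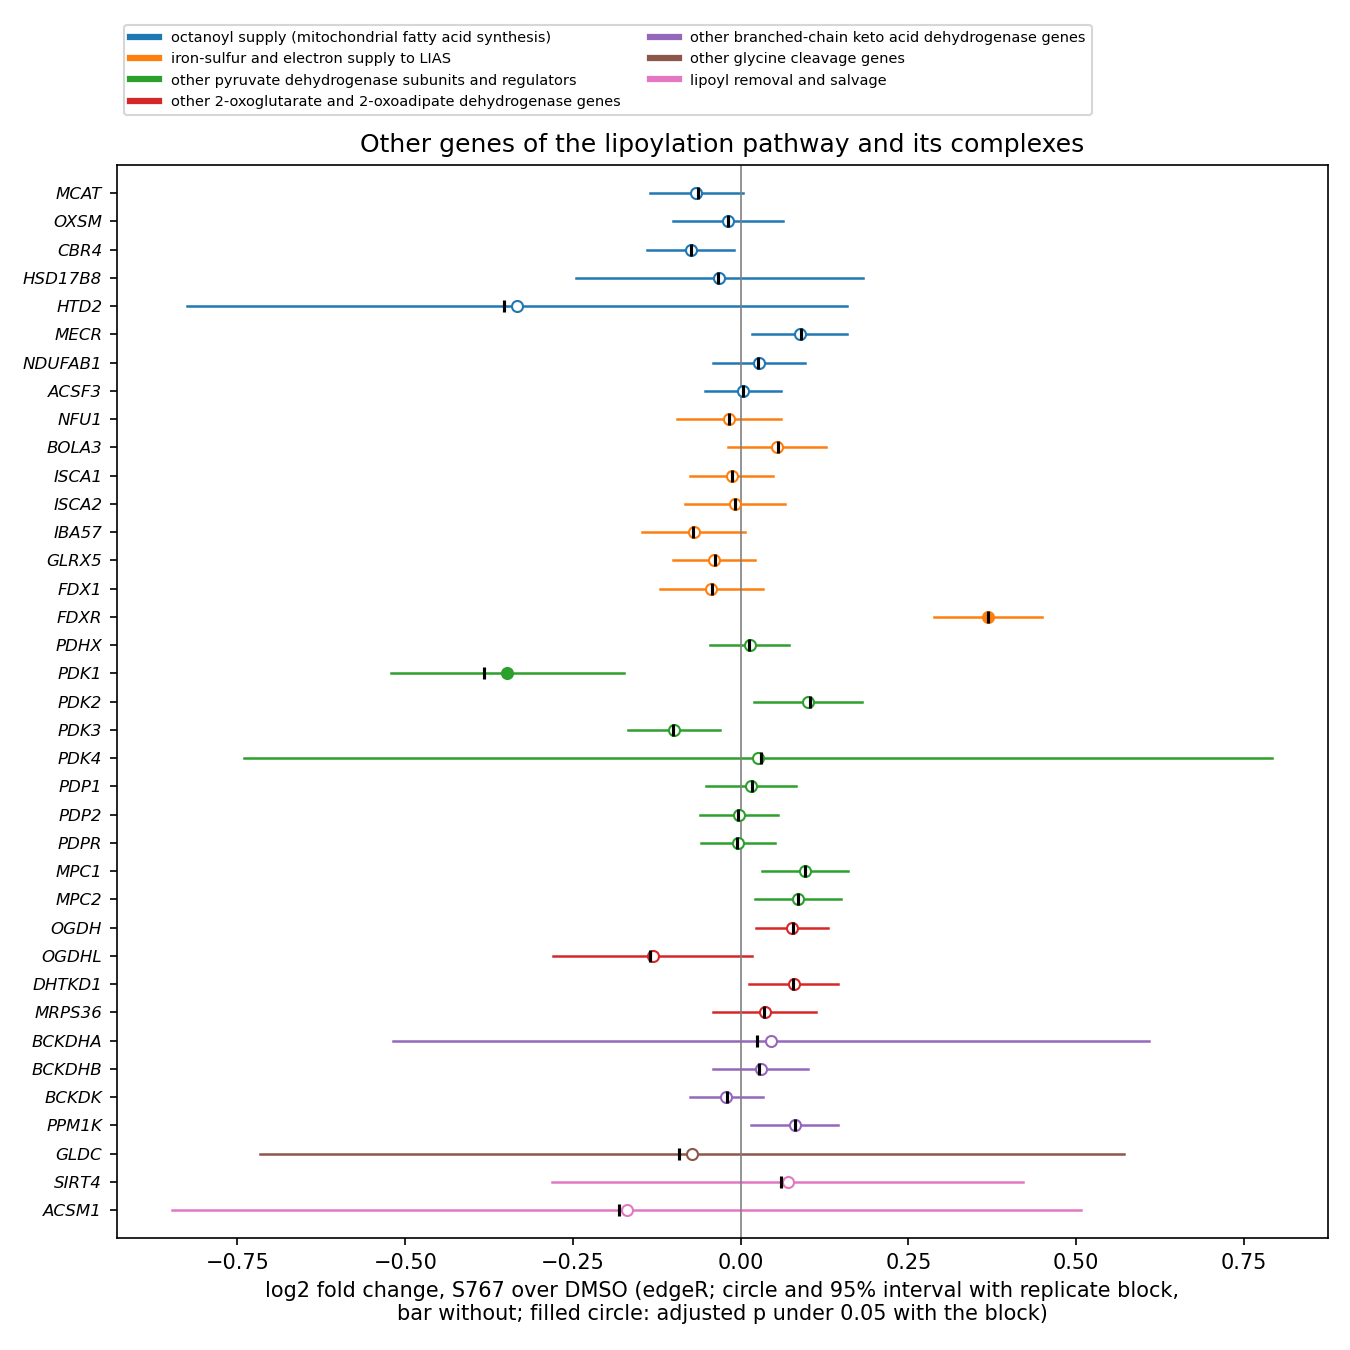
Log2 fold change of S767 over DMSO for the 37 tested pathway genes, coloured by role. Circles with 95% intervals come from the fit with the replicate block, filled where the adjusted p was under 0.05 (*FDXR* and *PDK1*), and black bars from the fit without it.

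The genes whose levels most resembled those of *LIAS* and *DLAT* over the 6 libraries were sought among 9601 tested genes with a mean log2 CPM of at least 3. For *LIAS* they were *KIFBP*, *RAD52* and *MCTS1* (Pearson r of log2 CPM 0.994, 0.990 and 0.987), and for *DLAT* they were *LRCH1*, *IRF2BPL* and *CSRNP1* (0.999, 0.997 and 0.993). None of the 6 belongs to the lists above. The libraries share their replicate numbers, and with 6 points a high resemblance among so many genes is a description only.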

How the data were processed

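The authors trimmed reads with Trimmomatic, aligned them with STAR (2.7.1a in the submitters' processing notes) to GRCh38 and ran RSEM (1.2.28 there, while the study's methods name a later version); the annotation release is not given in the sources used here. The deposited count tables hold whole reads per gene, unnormalized, and the lines that name no gene (20.3% of reads) were left out. The deposited RSEM tables hold expected counts, which were rounded to whole numbers here, TPM and effective lengths (bases), all as the authors' RSEM run estimated them. Symbols matched 60340 of 60609 identifiers, and 58502 occur in GENCODE 29, whose positions are printed.

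S767 was compared with DMSO on reverse-strand counts by the edgeR 4.0.16 quasi-likelihood test (R 4.3.3, TMM, filterByExpr with minimum count 10, Benjamini-Hochberg over 20725 genes, 95% intervals). CPM for single genes used a prior count of 2 in exact two-sided permutation tests. The alternatives were limma-voom, limma-trend with TPM on a log2 scale (pseudocounts 1 and 0.1; limma 3.58.1), DESeq2 1.42.0, RLE factors, library size alone, no filter, the replicate block, RSEM counts, counts without regard to strand and each library left out. The block combined with RSEM counts, with library size alone and with each replicate number left out was added after seeing the data. The fits were tested on simulated data. Members and lists were chosen with earlier results of these data known.

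The replicate numbers pair the libraries. Deviations correlated at 0.78, 0.87 and 0.75 for the same number, over 6191 genes with mean log2 CPM above 5, and between -0.62 and -0.24 otherwise. The pairing comes from these values, since the labels do not say what the numbers share. No library repeated another: the chi-square per gene was at least 15.4 for every pair. Named genes are the 10 members, pathway genes with P under 0.05 or an adjusted p under 0.05 with the block, the most abundant gene of each list and the 3 genes most similar to *LIAS* and to *DLAT*. *PDHX* (its lipoyl site and the planned ratio), *PDHA2*, *MPC2*, *HTD2*, *GLDC*, the other iron-sulfur genes listed without values and the genes that share exons or sequence with a named gene (*RPL9*, *AC092718.3*, *AC092718.8*, *GCSHP5*, *RPP14*, *AC011462.1*) fall outside that rule and, apart from the planned ratio, were chosen after their values were seen. Markers and the other genes of the ratios were fixed with the lists. *GCSH* to *GLDC* was planned as a ratio and not computed, because *GLDC* lay under 1 TPM.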

Additional observations from a re-analysis of the deposited data

How the results depend on the processing

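In each of the 21 alternative settings 0 members were called, and the smallest adjusted p of any member was 0.206. Many of these settings called almost no gene, so their 0 says little about the members. Limma-voom, RLE factors and library size alone each called 1 of 20725 genes. RSEM counts called 1 of 18851, and the fits without single libraries called 1 or 2 genes. The replicate block called 670 of 20725 genes (3.23%), a share at which so short a list could also have 0. The number of members with P under 0.05 was 1 with limma on log2(TPM + 1) and on log2(TPM + 0.1) (*DLD*) and 1 with the replicate block when replicate 1 of both groups was left out (*DBT*), where 4362 of 20629 genes were. On the TPM scales 1130 and 1093 of 24952 genes were. Every log2 fold change of a member stayed within 0.23 of 0, and without single libraries the members' median ranged from -0.01 to 0.03. That median was -0.0074 with RSEM counts, -0.0188 on log2(TPM + 1) and -0.0209 on log2(TPM + 0.1), against 0.0254 in the main fit. Signs near 0 did change. *LIAS* went to -0.0008 with RSEM counts, -0.0004 with RSEM counts and the replicate block, -0.0176 on log2(TPM + 1) and -0.0184 on log2(TPM + 0.1). *GCSH* went in the same settings to -0.0208, -0.0237, -0.0349 and -0.0357, and *BCKDHA* to -0.0385, -0.0379, -0.0544 and -0.0551. On log2(TPM + 1) and log2(TPM + 0.1), *DBT* went to -0.02 and -0.0243 and *SIRT4* to -0.0403 and -0.0765. With the block and 1 replicate number left out of both groups, *PDHB* (0.016) and *BCKDHA* (-0.0624) turned without replicate 1, *SIRT4* (-0.0237) without replicate 2 and *NDUFAB1* (-0.011) without replicate 3. Without single libraries the ranges that crossed 0 were -0.0164 to 0.0929 for *LIAS*, -0.0176 to 0.1056 for *LIPT1*, -0.0179 to 0.1389 for *DBT*, -0.0481 to 0.023 for *PDHB*, -0.017 to 0.0785 for *NDUFAB1*, -0.0661 to 0.002 for *GLRX5*, -0.1578 to 0.1328 for *BCKDHA* and -0.1012 to 0.2153 for *SIRT4*. Ranges that kept their sign were 0.002 to 0.1249 for *LIPT2*, 0.1275 to 0.2236 for *GCSH*, -0.0413 to -0.0078 for *DLAT*, 0.0017 to 0.0388 for *DLST*, -0.0606 to -0.0149 for *DLD*, -0.054 to -0.0069 for *PDHA1*, 0.0282 to 0.1171 for *OGDH*, 0.0788 to 0.1204 for *MPC1* and 0.3383 to 0.4032 for *FDXR*. The cause was not tested.

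Of the pathway genes, 1 was called with DESeq2 and with no filter on low counts (*FDXR* in both), 2 with the replicate block under either TMM or library-size scaling, and 1 with RSEM counts and the block. Of all genes tested, 25 of 20725, 9 of 35279, 670 and 617 of 20725, and 394 of 18851 were called in these settings. With the block, 9 were called without replicate 1, 1 without replicate 2 and 2 without replicate 3, where 2034 of 20629, 24 of 21198 and 636 of 20801 of all genes tested were. Those called without replicate 1 included *FDXR* (0.4279), *PDK1* (-0.5296), *MPC1* (0.1089), *OGDH* (0.0794) and *NDUFAB1* (0.0793). P was under 0.05 for 2 pathway genes with no filter, 11 with the block, 13 with RSEM counts and the block, 12 with the block and library-size scaling, 12, 7 and 6 with the block and replicate 1, 2 or 3 left out, and 1 to 5 without single libraries, the most without DMSO replicate 1. The counts over all genes were 1044 of 35279 with no filter, 3475 of 20725, 3322 of 18851 and 3454 of 20725 in the block settings, 4362 of 20629, 1895 of 21198 and 2791 of 20801 with replicate 1, 2 or 3 left out, and 903 of 21046 without DMSO replicate 1. Fits on 2 pairs have few residual degrees of freedom. *PDK1* alone ranged from -0.59 without DMSO replicate 1 to -0.21 without DMSO replicate 2.

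Among the ratios, *DLAT*/*PDHB* went to -0.004 and *PDHA1*/*PDHB* to -0.014 in CPM. The difference of *DLAT*/*PDHX* was -0.003 in TPM and -0.035 in CPM. Without single libraries, ranges were -0.028 to 0.035 for *DLAT*/*PDHA1*, -0.005 to 0.057 for *DLAT*/*PDHB*, -0.033 to 0.057 for *PDHA1*/*PDHB*, -0.017 to 0.015 for *DLAT*/*PDHX*, -0.042 to 0.113 for *DBT*/*BCKDHA*, -0.082 to -0.017 for *DLST*/*OGDH* and -0.12 to -0.059 for *DLD*/*DLAT*.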
